A study of Mus musculus with 6 samples.

Results

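The genes of interferon signaling and innate sensing were followed in mouse fetal liver and aged bone marrow. Members were chosen by their symbols alone. The rule covered the interferons and their receptors, the STAT and IRF transcription factors, and the Ifi, Ifit, Ifitm, Isg15, Oas and Mx symbols. It also covered the guanylate-binding proteins, the Toll-like receptors (TLRs) and the NLR family. Of the Oas and Mx symbols, only Oasl2 was on the panel. Of the genes on the panel, 53 were members and 4997 were not, with the members comprising 2 ligands, 5 receptors, 7 STATs, 7 IRFs, 6 interferon-induced genes, Ifitm3, 3 guanylate-binding protein genes, 3 genes of the Ifi200 family, 12 TLRs and 7 NLRs.

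The study mapped the niches in which red blood cells mature, where macrophages that express complement C1q are surrounded by erythroid cells. One section came from the liver of a wild-type C57BL/6 embryo at E13.5, and the other from leg bone marrow of a wild-type C57BL/6 mouse at 89 weeks, and neither was labelled as treated. Both were 5 µm sections of paraffin-embedded tissue imaged by Xenium, in which gene-specific probes mark single RNA molecules inside outlined cells. The liver was fixed in formalin, whereas the marrow was fixed in paraformaldehyde and freed from frozen slices of bone before it was embedded. With 1 section for each condition, nothing here could be tested across mice. All intervals are at 95% and cover counting error only, and the comparisons are between these sections, in which tissue, age and handling cannot be told apart.

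Interferons are secreted alarm proteins. Type I interferons signal through Ifnar1 and Ifnar2 to transcription factor complexes with Stat2 and Irf9, which bind a promoter sequence called the interferon-stimulated response element (ISRE), whereas interferon gamma signals through Ifngr1 and Ifngr2 and acts on promoters with the gamma-activated sequence (GAS). TLRs and NLRs sense microbial molecules and tissue damage upstream of this pathway, and tissue macrophages and dendritic cells are among the cells best known for carrying them.

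The ISRE letters, which are GAAA, any 2 bases and GAAA again, searched on both strands from 250 bases before to 50 bases after the RefSeq start sites (GRCm38.p6), were found in promoters of 12 of the 48 members that the RefSeq table holds, or 20.7% of 58 member promoters against 3.44% of all 32851 promoters. These members were Isg15, Ifit1, Ifit3, Ifitm3, Gbp2, Gbp2b, Gbp3, Ifi208, Stat2, Stat4, Tlr6 and Tlr11. The GAS letters, which are TTC, any 3 bases and GAA, were found in 19.0% of member promoters against 8.30% of all promoters, among them those of Irf1, Irf8, Ifnar1, Ifnar2 and Ifng. A match shows only that the letters lie in the window. The stretches of 5 promoters are printed below as examples of members that hold the ISRE letters and were at least 2-fold higher in the 4 marrow tiles described later, which were chosen by Ifit1 and Ifit3 among others, with the ISRE letters in capitals and 10 bases on either side, read along the strand of the gene. The stretch of Isg15 lies at chr4:156200865-156200906 on the minus strand, and the others lie on the plus strand at chr19:34640775-34640823 for Ifit1, chr19:34583363-34583426 for Ifit3, chr3:142620594-142620623 for Gbp2 and chr3:142559989-142560024 for Gbp3.
Isg15: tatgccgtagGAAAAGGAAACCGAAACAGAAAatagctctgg
Ifit1: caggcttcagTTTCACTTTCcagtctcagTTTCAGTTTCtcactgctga
Ifit3: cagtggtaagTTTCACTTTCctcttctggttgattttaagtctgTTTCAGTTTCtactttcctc
Gbp2: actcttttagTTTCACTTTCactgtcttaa
Gbp3: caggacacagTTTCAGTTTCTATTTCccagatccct
Isg15 held 3 overlapping matches, Ifit1, Ifit3 and Gbp3 held 2 each, and Gbp2 held 1.

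The liver section held 5285 cells with 1384795 gene counts, a median of 190 per cell, and the marrow section held 143810 cells with 13053261 gene counts, a median of 60 per cell. Levels were therefore taken as CPM, counts scaled to 1000000 gene counts, where 1 count equals 0.722 CPM in the liver and 0.0766 CPM in the marrow. In section totals, fewer cells of a type and less RNA per cell cannot be told apart. The panel carried 40 negative control probes without a target in the mouse, of which the brightest reached 1 count in the liver and 18 in the marrow. All 53 members exceeded that level in the marrow and 44 did so in the liver, where the other 9 included both ligands. Probes differ between genes, so levels are compared between cells and sections and not between genes.

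The members took a larger share of the RNA in the aged marrow than in the fetal liver. They gave 123300 counts or 0.945% of all gene counts in the marrow, against 3692 counts or 0.267% in the liver. At least 2-fold higher levels in the marrow were found for 39 of 53 members, against 27.3% of the 4966 panel genes with at least 20 counts over both sections. At least 2-fold higher levels in the liver were found for 1 member, Nlrp6, against 17.7% of panel genes. Since the marrow section gave far more counts, 28 members with fewer than 20 liver counts passed the filter through the marrow, and their counts give no support of their own. Among genes with at least 20 counts in the liver, a limit chosen after seeing the data, 15 of 25 members were at least 2-fold higher in the marrow, against 13.1% of 3128 genes, with a median of 2.63-fold over these members and 0.84-fold over these genes. Taken per cell instead of as CPM, the median over all genes dropped to 0.379-fold, and 21 members were at least 2-fold higher in the marrow, against 9.65% of all genes tested, while 10 were at least 2-fold higher in the liver, against 59.4%.

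**Figure D1:**
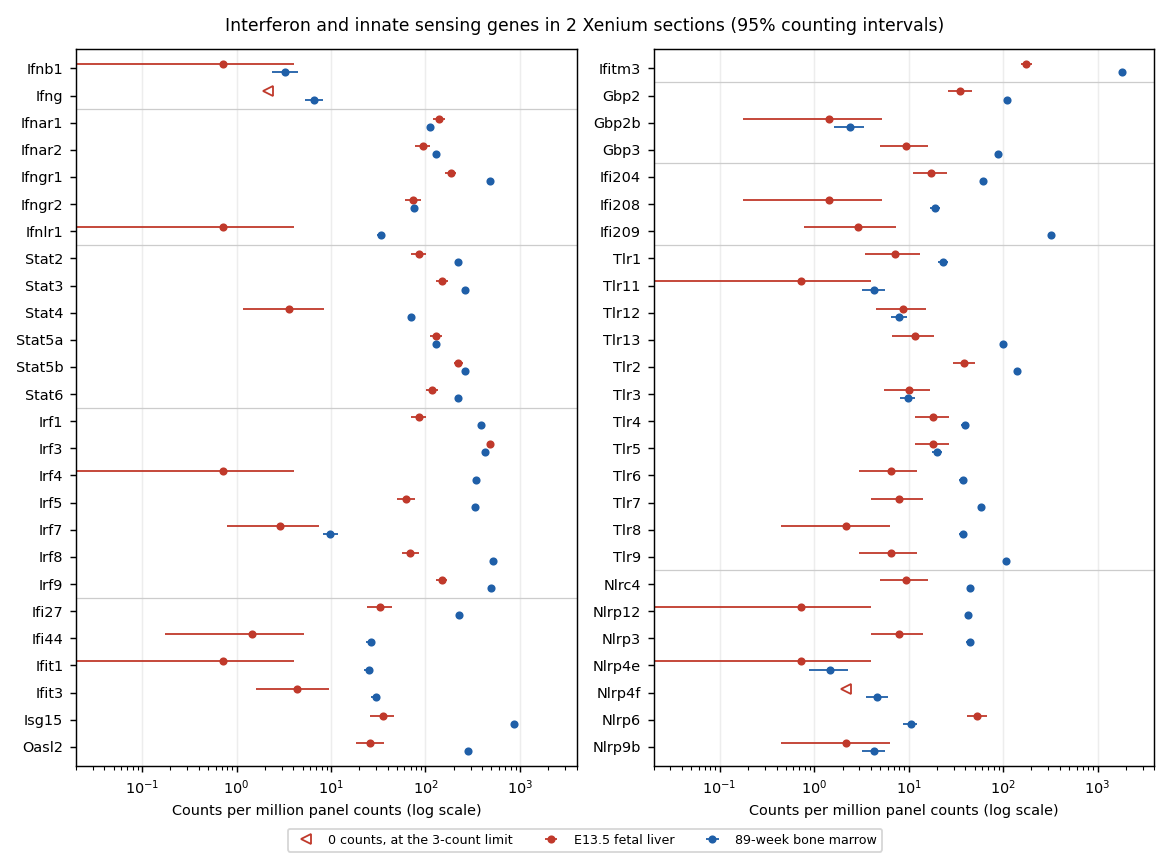
Level of 52 of the 53 members in both sections, as CPM on a log axis, with 95% counting intervals and members grouped by role. Most marrow values lie to the right of the liver values, those of Irf3, Stat5a and Ifngr2 nearly coincide, and Nlrp6 is higher in the liver.

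Both interferon genes on the panel were close to the detection limit. Ifnb1, a type I interferon, gave 1 count in the liver and 43 counts in the marrow. Ifng, the type II interferon of T and NK cells, gave 0 counts in the liver and 87 counts or 6.67 CPM in the marrow. With the limit for 0 counts set at 3 counts, or 2.17 CPM, it was at least 3.08-fold higher in the marrow, and the lower end of the exact interval was 2.45-fold. In the marrow, the NK cell gate, defined below with the other cell classes, held 6 of the 87 Ifng counts in 145 cells, or 264 CPM against 6.22 CPM in other cells. Ifng was also at least 2-fold higher in T cell-gated cells, with the interval above 1, and most of its counts lay outside the NK cell gate.

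The receptors differed less than most other members, with 681 counts in the liver and 10886 in the marrow and a summed fold of 1.70 (1.57 to 1.84). The type I receptor chains showed little contrast, with Ifnar1 at 139 CPM in the liver and 111 CPM in the marrow and Ifnar2 at 93.2 and 128 CPM. Of the interferon gamma receptor chains, Ifngr1 was 2.62-fold higher in the marrow (185 and 485 CPM), whereas Ifngr2 was at 74.4 and 75.9 CPM. Ifnlr1, a chain of the receptor for interferon lambda, had 1 count in the liver and 445 in the marrow, a fold of 47.2 with an interval from 8.43 to 1869. Of its marrow counts, 49.0% lay in cells of the granulocyte gate, at 79.1 CPM against 22.0 CPM elsewhere. Per cell, the summed receptors were at 0.587-fold and Ifngr1 at 0.908-fold, against a median of 0.379-fold over all genes.

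Of the 7 STATs, 3 were at least 2-fold higher in the marrow, against 27.3% of panel genes, and 2 of the 6 with at least 20 liver counts, against 13.1%. The summed level was 763 CPM in the liver and 1482 CPM in the marrow, a fold of 1.94 (1.83 to 2.07). Stat2 gave 117 counts in the liver and 2903 in the marrow, or 84.5 and 222 CPM, 2.63-fold higher (2.19 to 3.19). Stat6 was at 1.89-fold and Stat3 at 1.76-fold. The cytokine transducers Stat5a and Stat5b, which act below the erythropoietin receptor, were at 0.99-fold and 1.18-fold. Stat4, which transmits interleukin-12 signals in lymphocytes, rested on 5 counts in the liver against 920 in the marrow, a fold of 19.5 with an interval from 8.33 to 60.3. Per cell, the summed STATs were at 0.673-fold and Stat2 at 0.912-fold, against a median of 0.379-fold over all genes.

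Irf3, the factor that starts interferon transcription after sensing, was the one IRF without a higher level in the marrow, with 671 counts in the liver and 5578 in the marrow, or 485 and 427 CPM. The other 6 of 7 IRFs were at least 2-fold higher in the marrow, against 27.3% of panel genes, and with at least 20 liver counts 4 of 5, against 13.1%. Irf4, a factor of lymphocytes and plasma cells, had 1 count in the liver and 4503 in the marrow, a fold of 478 with an interval from 85.7 to 18873. Irf8, which directs monocyte and dendritic cell fate, gave 69.3 CPM in the liver and 515 CPM in the marrow, 7.43-fold higher (6.07 to 9.18). Irf5, which acts below TLRs, was 5.29-fold higher, Irf1 4.53-fold and Irf9, the partner of Stat2, 3.31-fold. Irf7, the amplifier of type I interferon transcription, gave 4 and 129 counts.

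All 6 interferon-induced genes were at least 2-fold higher in the marrow, against 27.3% of panel genes. Those with at least 20 liver counts were 3, against a share of 13.1% over genes with as many. Ifit1, Ifit3 and Ifi44 passed the filter through the marrow. The list gave 140 counts in the liver and 19046 in the marrow, a summed fold of 14.4 (12.2 to 17.2). Isg15, a ubiquitin-like protein, gave 49 counts in the liver and 11348 in the marrow, or 35.4 and 869 CPM, 24.6-fold higher (18.6 to 33.2). Oasl2, a relative of the 2'-5' oligoadenylate synthetases, was at 26.0 and 280 CPM, 10.8-fold higher. Ifi27 was at 33.2 and 229 CPM, 6.88-fold higher. The RNA-binding Ifit1 rested on 1 and 329 counts, Ifit3 on 6 and 388, and Ifi44 on 2 and 345, and the lower ends of their intervals were 6.22, 3.12 and 5.03-fold. Ifitm3, a membrane protein that restricts virus entry, gave 245 counts in the liver and 23590 in the marrow, or 177 and 1807 CPM, and was 10.2-fold higher (9.01 to 11.6).

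The guanylate-binding proteins, large GTPases induced mainly by interferon gamma, had a summed fold of 4.38 (3.42 to 5.71). Gbp2 was at 35.4 CPM in the liver and 111 CPM in the marrow, and Gbp3 at 9.39 and 89.5 CPM. The Ifi200 family, which includes DNA sensors, had a summed fold of 18.6 that rested on Ifi209, with 4 counts in the liver and 4216 in the marrow. Ifi204 alone was 3.56-fold higher, with 24 and 805 counts. These families hold close copies in the genome, and which copy the probes read was not given in the sources used here.

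Of the 12 TLRs, 3 had at least 20 counts in the liver, and Tlr2 and Tlr4 of these were at least 2-fold higher in the marrow, against 13.1% of genes with as many liver counts. Over both sections 9 of 12 passed, against 27.3%, of which 7 reached 20 counts through the marrow alone. The summed level was 136 CPM in the liver and 588 CPM in the marrow, a fold of 4.30 (3.73 to 5.00). Among the TLRs that read nucleic acids in endosomes, all with fewer than 20 liver counts, Tlr8 was at 3 and 489 counts (17.3-fold, 5.88 to 84.1), Tlr9 at 9 and 1419 counts (16.7-fold, 8.79 to 36.7), Tlr13 at 16 and 1296 counts (8.59-fold) and Tlr7 at 11 and 757 counts (7.30-fold). Tlr2, which reads bacterial lipoproteins, was at 39.0 and 142 CPM, and Tlr4, the receptor for lipopolysaccharide, at 18.1 and 39.1 CPM. Tlr3, which also reads RNA in endosomes, Tlr5 and Tlr12 were at 0.97, 1.11 and 0.92-fold, each with an interval that included 1.

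Of the 7 NLRs, Nlrp6 alone had at least 20 liver counts, and it was lower in the marrow. The others passed the filter through the marrow, so their values give no support of their own. Nlrp12 had 1 count in the liver and 557 in the marrow, Nlrp3, the core of the best-known inflammasome, had 11 and 577, and Nlrc4 had 13 and 588. Nlrp6, an NLR known from epithelia, gave 74 counts in the liver and 137 in the marrow, or 53.4 and 10.5 CPM, which was 0.196-fold in the marrow (0.147 to 0.264). Its counts lay in different gates of each section. In the liver, 52 of 74 counts fell in the hepatocyte gate, at 132 CPM against 22.2 CPM elsewhere (5.92-fold, 3.54 to 10.2). In the marrow, 78 of 137 fell in the megakaryocyte gate, at 86.6 CPM against 4.85 CPM elsewhere (17.8-fold, 12.6 to 25.5). Nlrp4e, Nlrp4f and Nlrp9b had 0 to 3 counts in the liver and 19 to 61 in the marrow.

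The next comparison asked which members were higher in cells with C1q RNA, wherever these lay in the section. A cell was called C1q-positive when the counts of its C1q genes (C1qa, C1qb, C1qc) summed to 3 or more, which took 301 cells (5.70%) in the liver and 4077 cells (2.83%) in the marrow. The gate took cells with macrophage RNA, since 12 of 13 independent macrophage genes in the liver and 13 of 13 in the marrow were at least 2-fold higher in it, and their summed level was 13.2-fold and 5.54-fold that of other cells. The median count per cell was 252 in C1q-positive cells and 184 in other cells of the liver, and 134 and 59 in the marrow. In the marrow, 1772 cells sat exactly at 3 counts and 3968 cells just below it. In the liver, summed monocyte markers were at 3.08-fold (2.36 to 3.98) in the gate, dendritic markers at 1.78-fold (1.23 to 2.53), endothelial markers at 1.34-fold (1.21 to 1.48) and megakaryocyte markers at 1.21-fold (1.04 to 1.41). In the marrow the summed T cell markers were at 1.70-fold, where Cd4 alone was at 6.95-fold on 369 counts and the other 8 genes lay between 0.75 and 1.37-fold. Their part in the results below was not tested.

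In the fetal liver, C1q-positive cells were higher for Tlr2 and Tlr4, for Irf1, Irf5 and Irf8, and for the receptor chains Ifngr1, Ifngr2 and Ifnar1, the last at 1.87-fold (1.18 to 2.83), whereas Irf3 at 0.897-fold and Irf9 at 0.802-fold had intervals that included 1. Of 25 members with at least 20 counts, 12 were at least 2-fold higher in C1q-positive cells, against 9.53% of 3128 genes, and 1 was at least 2-fold lower, against 9.91%. Tlr2 gave 33 counts in C1q-positive cells and 21 in all other cells, or 308 and 16.4 CPM, 18.7-fold higher (10.5 to 34.0). Irf5 gave 47 and 40 counts, or 438 and 31.3 CPM, 14-fold higher (8.99 to 21.9). Ifi204 was 11.9-fold higher (4.90 to 29.0), Tlr4 7.94-fold (3.19 to 18.9) and Irf8 4.66-fold (2.87 to 7.37). Gbp2, Ifngr1, Stat6 and Ifitm3 followed at 3.86, 2.61, 2.47 and 2.46-fold, and Irf1 and Ifngr2 at 2.29 and 2.03-fold. Oasl2 was at 2.38-fold on 6 of 36 counts, and its interval included 1. Members with fewer than 20 counts are given as counts alone, with 7 of 9 for Tlr9, 3 of 3 for Tlr8, 8 of 16 for Tlr13, 5 of 10 for Tlr1 and 6 of 11 for Nlrp3 in C1q-positive cells. Nlrp6 gave 1 of 74 counts and Tlr5, the receptor for flagellin, 0 of 25 counts in C1q-positive cells.

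Summed over all 12 genes, TLR counts in the liver were concentrated in C1q-positive cells, which held 77 of 189, or 718 CPM against 87.7 CPM in other cells, a fold of 8.19 (6.05 to 11.05) and of 5.76 without Tlr2. The guanylate-binding genes were at 3.97-fold, the receptors at 1.98-fold, the IRFs at 1.77-fold and the interferon-induced genes at 1.76-fold (1.01 to 2.90). The STATs were level at 1.02-fold (0.80 to 1.27). With the other cells limited to the 1943 with fewer than 3 erythroid marker counts, 5 of 20 members tested were at least 2-fold higher, against 8.32% of genes. Of the members named above, Irf1 (1.55), Ifngr2 (1.71), Ifitm3 (1.72) and Oasl2 (1.34) were below 2-fold there, and Ifi204, Tlr4 and Gbp2 had fewer than 20 counts. At gates of 2 and 5 counts, Irf1 was at 1.72 and 1.84-fold and Ifngr2 at 1.55 and 1.67-fold, and Oasl2 was at 1.68-fold at 2 counts. Ifi204 was at 3.97-fold at a gate of 10 counts.

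In the aged marrow, the members at least 2-fold higher in C1q-positive cells, at the gate of 3 counts, were all TLRs. Of 52 members tested, 6 passed this rule, against 6.36% of 4923 genes, and 3 were at least 2-fold lower, against 6.46%. Tlr8 was at 121 CPM in C1q-positive cells and 32.9 CPM in other cells, 3.69-fold higher (2.88 to 4.69), and Tlr7, its relative that also reads single-stranded RNA, at 161 and 52.4 CPM, 3.08-fold higher (2.49 to 3.78). Tlr2 at 324 and 132 CPM, Tlr4 at 85.9 and 36.6 CPM, Tlr13 at 209 and 93.3 CPM and Tlr1 at 47.4 and 21.8 CPM completed the set, with folds from 2.17 to 2.45. Nlrc4 at 1.82-fold, Gbp2 at 1.69-fold and Irf5 at 1.64-fold followed, and Tlr12 was at 1.95-fold on 10 counts with an interval that included 1. Ifnlr1, Nlrp12 and Irf4 were lower, at 0.465, 0.473 and 0.476-fold.

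The interferon-induced genes were nearly level between C1q-positive and other cells of the marrow, at 1.09-fold in sum (1.03 to 1.16), with Isg15 at 893 and 868 CPM and Ifitm3 at 1743 and 1811 CPM. The TLRs were at 2.19-fold (2.03 to 2.35) and the IRFs at 1.01-fold. The number of members at least 2-fold higher moved with the gate, from 2 of 52 at 2 counts, against 4.23% of genes, to 16 of 52 at 10 counts, against 13.5%, which is more than the 12 TLRs and so includes other members. The cells outside the gate differ between liver and marrow, so each ratio depends on both of its sides. From liver to marrow, the summed TLRs went from 718 to 1210 CPM in C1q-positive cells and from 87.7 to 554 CPM in other cells. Tlr2 went from 308 to 324 CPM and from 16.4 to 132 CPM, and Irf5 from 438 to 527 CPM and from 31.3 to 321 CPM. The summed interferon-induced genes went from 168 to 1585 CPM in C1q-positive cells and from 95.5 to 1452 CPM in other cells. What these differences come from was not tested.

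**Figure D2:**
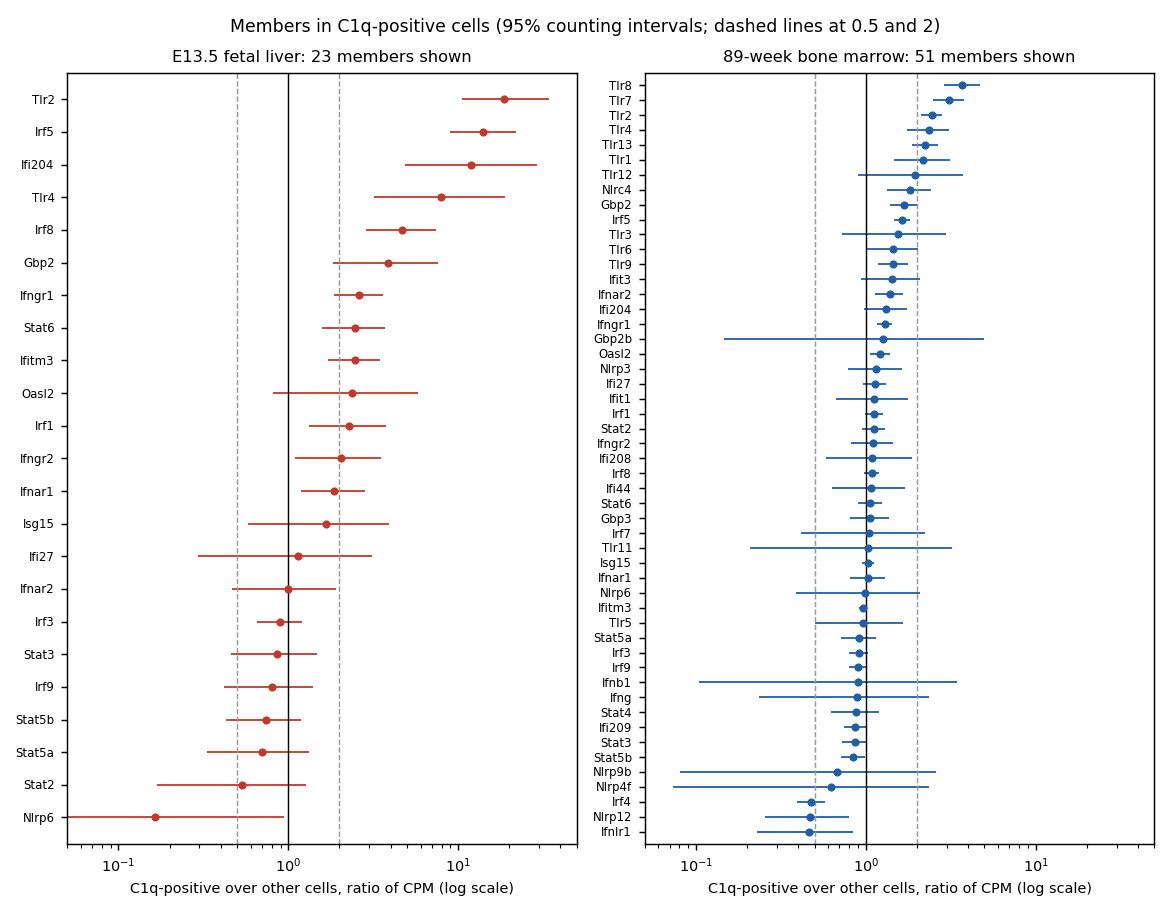
Fold of C1q-positive over other cells for the members shown, each with at least 20 counts in a section and at least 1 in C1q-positive cells, on a log axis with 95% counting intervals, in the liver and in the marrow. In the liver Tlr2, Irf5 and Ifi204 lie above 10-fold, whereas in the marrow the members at least 2-fold higher are Tlr8, Tlr7, Tlr2, Tlr4, Tlr13 and Tlr1.

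To see which other cells of the marrow carried the members, cells outside the C1q gate were assigned to the marker list with the largest count relative to its mean, with at least 3 counts. A dendritic cell gate took 125 cells whose leading genes went against its name and is not described further. These gates left 44.1% of the marrow cells unassigned, with a median of 31 counts, and outlines can hold RNA of neighboring cells. A member was counted as higher in a class where it was at least 2-fold above all other cells with the interval above 1.

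Monocyte-gated cells were higher for 14 of 52 members, against 3.96% of genes tested. Nlrp3 was at 173 CPM against 37.7 CPM (4.59-fold, 3.69 to 5.67) in them, Irf5 at 1098 against 294 CPM (3.74-fold) and Ifi204 at 193 against 55.1 CPM (3.49-fold). Ifitm3 was at 4958 CPM in them against 1649 CPM elsewhere (3.01-fold, 2.89 to 3.12). Tlr13, Tlr8, Tlr5 and Tlr2 were 2.79, 2.63, 2.48 and 2.30-fold higher.

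Plasmacytoid-gated cells, named by the markers of the dendritic cells known for secreting type I interferon, were higher for 12 members, against 6.93% of genes. Irf8 was at 3353 CPM in them and 450 CPM elsewhere (7.46-fold, 6.96 to 7.98). Tlr9, which reads unmethylated DNA, was at 522 and 99.2 CPM (5.27-fold), Tlr12 at 8.51-fold, Ifi44 at 4.46-fold, Stat2 at 3.22-fold and Tlr7 at 2.11-fold. Both type I receptor chains, Ifnar1 and Ifnar2, were also higher there, at 2.21-fold and 2.05-fold. Irf7 gave 2 counts and Ifnb1 1 count in the 1889 cells of this gate.

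B cell-gated cells were higher for 7 members, against 6.54% of genes, with Tlr9 at 478 CPM and 91.6 CPM elsewhere (5.22-fold), Tlr1 at 4.68-fold, Ifi209 at 3.53-fold and Irf4 at 3.21-fold. The plasma cell gate was higher for 1 member, against 2.58%, and this was Irf4 at 2137 CPM and 303 CPM elsewhere (7.06-fold, 6.49 to 7.68). T cell-gated cells were higher for 10 members, against 7.37%, and NK cell-gated cells for 6, against 6.24%. Stat4 was at 343 CPM in T cell-gated and 616 CPM in NK cell-gated cells, 4.96-fold and 8.86-fold above other cells, and Irf1 at 3.08-fold and 2.97-fold.

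Granulocyte-gated cells, the largest gated class, were higher for 1 member, Ifnlr1 at 3.59-fold (2.96 to 4.34), against 3.19% of genes. Megakaryocyte-gated cells were higher for Nlrp6 and Tlr12, against 6.58%. Endothelial-gated cells were higher for Ifi44 and Tlr3, against 11.7%, and stroma-gated cells for Ifi44, Tlr3 and Oasl2, against 13.7%. Mast or basophil-gated cells were higher for 0 members, against 2.17%.

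In the liver, where counts were lower, Oasl2 gave 20 of its 36 counts in stroma-gated cells, 8.90-fold above other cells (4.38 to 18.4), and Ifi27 15 of 46 (3.45-fold). Ifitm3 was at 612 CPM in megakaryocyte-gated cells and 164 CPM elsewhere (3.73-fold). Stat5a was at 481 CPM in granulocyte-gated cells and 117 CPM elsewhere (4.10-fold), and Tlr5 gave 16 of 25 counts in hepatocyte-gated cells.

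**Figure D3:**
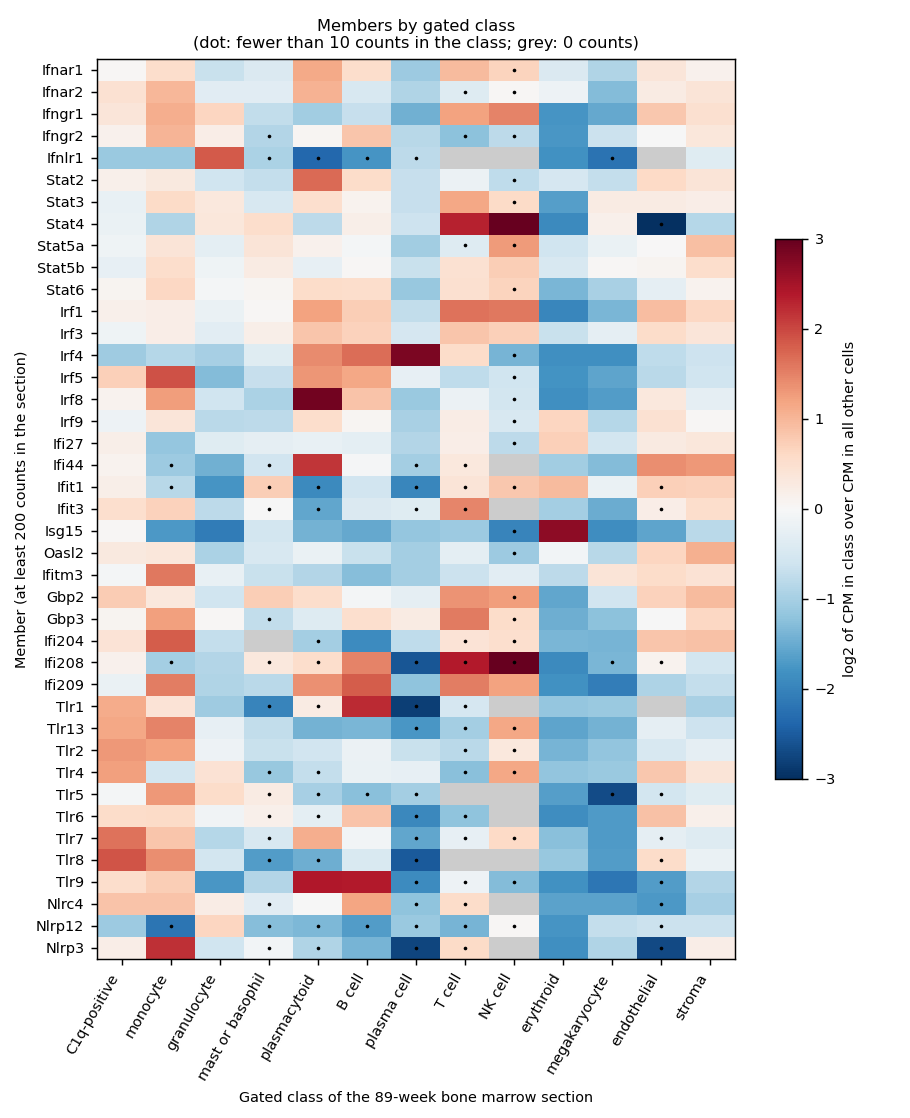
Fold of each gated class over all other cells of the 89-week marrow section for the members shown, each with at least 200 counts in the section, on a log2 colour scale. Isg15 is dark red in the erythroid gate at 6.38-fold, Irf4 in the plasma cell gate at 7.06-fold and Irf8 in the plasmacytoid gate at 7.46-fold.

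Isg15 was higher in erythroid-gated than in other cells of both sections. Most members were lower there, since 33 of 52 were at least 2-fold lower in erythroid-gated cells of the marrow, against 38.7% of genes. Isg15 was the 1 member higher, against 5.69% of genes, with 7200 of its 11348 counts in 20965 cells, or 2579 CPM against 404 CPM in other cells, 6.38-fold higher (6.14 to 6.63). The fold stayed between 4.85 and 10.2 over 9 alternative settings. Among the other 5 interferon-induced genes, Ifit1 was at 1.92-fold and Ifi27 at 1.64-fold, and Oasl2 was at 268 and 283 CPM. Ifi44 at 0.482-fold (0.34 to 0.67) and Ifit3 at 0.494-fold (0.36 to 0.67) were lower in erythroid-gated cells. In the liver, 29 of 49 Isg15 counts lay in erythroid-gated cells, at 67.9 CPM against 20.9 CPM in other cells, 3.25-fold higher (1.78 to 6.06). A single cell held 6 of these counts, and without it the fold was 2.58. With a gate of at least 10 counts the liver fold was 1.80 and its interval included 1, as did that of the lower-x side of the liver section, at 2.37-fold on 10 and 9 counts.

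In the marrow, Isg15 rose with the number of erythroid marker counts in the cell, up to 11 to 20 counts. Cells with more marker counts also had more counts in all, with a median of 46 in the lowest and 271 in the highest bin. With C1q-positive cells left out, marrow cells with 0 counts of the 5 erythroid markers (Slc4a1, Alas2, Klf1, Epor and Gata1) had 218 CPM of Isg15. The level was 603 CPM at 1 to 2 counts, 1365 CPM at 3 to 5, 2283 CPM at 6 to 10, 2918 CPM at 11 to 20 and 2767 CPM at 21 or more. Irf9 went from 427 to 688 CPM and Ifi27 from 185 to 376 CPM over the same range, whereas Ifitm3 went from 2114 down to 1025 CPM. Oasl2 had 298 CPM in the lowest and 202 CPM in the highest bin. In the liver, where each bin held 4 to 11 Isg15 counts, the level was 18.9 CPM in the lowest and 48.4 CPM in the highest bin, and these intervals overlapped.

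**Figure D4:**
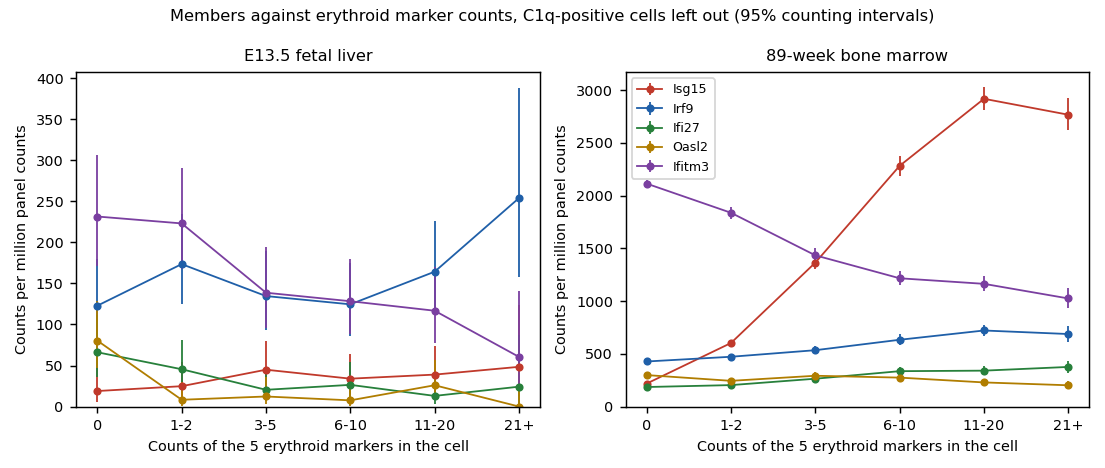
Level of 5 members in CPM with 95% counting intervals, by the number of erythroid marker counts in the cell, C1q-positive cells left out. In the marrow, from 0 to 21 or more marker counts, Isg15 goes from 218 to 2767 CPM and Ifitm3 from 2114 to 1025 CPM. Isg15 peaks at 2918 CPM at 11 to 20 counts, and in the liver its few counts leave wide intervals.

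Across 220 square tiles of 200 µm with at least 2000 gene counts, Isg15 went with the erythroid markers (Pearson r = 0.54, Spearman rho = 0.68), whereas the sum of the other 5 interferon-induced genes did not (r = 0.04, rho = 0.11). Isg15 and these 5 genes had r = 0.62 and rho = 0.28. Neighboring tiles and a shared total make these values a description. The level of the 5 genes was even over most of the section, with a median of 537 CPM and 80% of tiles between 377 and 760 CPM, but 4 tiles stood out. They were taken, after their values were seen, as the tiles with at least 20 counts of the 5 genes and at least 2-fold the median, and had 1417, 2236, 2484 and 3434 CPM, and the next tile with at least 20 counts had 1010 CPM. Outside the rule, tiles with 8 and 4 counts of these genes had 1264 and 1161 CPM. Of the 4 tiles, 2 adjoined, and the others lay apart from them and from each other. They held 3535 cells, or 2.46% of the section, with a median of 54 counts per cell against 61 elsewhere.

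What chose the tiles is not a result, but members that were not used to choose them differed there too. Of 47 such members, 11 were at least 2-fold higher in the tiles with the interval above 1, whereas 2.05% of all 4923 genes passed this rule. Isg15 was at 3106, 3933, 3348 and 1268 CPM in the 4 tiles and at 822 CPM in the rest of the section, 3.68-fold higher in all (3.43 to 3.95). Gbp2 was at 338, 607, 589 and 168 CPM against 104 CPM (4.23-fold, 3.49 to 5.10). The tiles stand in the order of 2236, 2484, 3434 and 1417 CPM of the 5 genes. The values of both genes were above the rest of the section in each tile, and lowest in the last. There Gbp2 rested on 9 counts, and Isg15 was close to the 90th percentile of all 220 tiles, 1262 CPM. Tiles outside the rule included some with 2667 CPM of Isg15 on 7 counts, 2631 CPM on 245 and 2188 CPM on 221. Those with 2631 and 2188 CPM adjoined the tiles with 3434 and 2484 CPM of the 5 genes, and had 1010 and 950 CPM of these genes.

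The members that passed also included Ifi204 at 4.78-fold, Irf7 at 4.71-fold on 12 counts, Ifi208 at 4.21-fold, Ifng at 3.40-fold on 6 counts, Gbp3 at 2.66-fold, Ifitm3 at 2.47-fold, Ifi209 at 2.28-fold and Stat2 at 2.08-fold. These folds pool the 4 tiles and did not all hold in the tile with 1417 CPM of the 5 genes. There Gbp3 was at 37.3 CPM against 86.4 CPM outside the tiles, Ifi209 at 261 against 314 CPM, and Ifng had 0 counts. Ifi208 at 18.6 against 17.9 CPM and Stat2 at 242 against 217 CPM were nearly level there. Ifi204, Ifitm3 and, on 1 count, Irf7 were higher in that tile. None of the 5 receptors, 12 TLRs or 7 NLRs passed, which is near the share of 2.05% over all 4923 genes. Irf3 was at 1.05-fold and Irf8 at 1.17-fold, and Ifnb1 had 0 counts in the tiles. Among the 5 genes used, Ifit3, Ifi44, Ifit1 and Oasl2 were at 11.9, 10.2, 9.01 and 5.87-fold, whereas Ifi27 was at 1.09-fold (0.84 to 1.38).

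Genes of the pathway that were no members also stood out in these tiles. Of 50 such genes on the panel, 14 passed the same rule, against 2.05% of all 4923 genes. Cxcl10, a chemokine that draws T cells and is named for its induction by interferon gamma, gave 69 counts in the tiles and 307 elsewhere, or 248 and 24.0 CPM, 10.3-fold higher (7.82 to 13.4). It was uneven among the tiles, at 471, 276, 129 and 18.6 CPM. Its relative Cxcl9 was 4.93-fold higher, at 338, 221, 359 and 671 CPM in the tiles and 76.6 CPM elsewhere. Pooled over the tiles, the nucleic acid sensors Zbp1, Dhx58 and Ifih1 were 4.61, 3.98 and 3.11-fold higher. Usp18, which removes Isg15 from proteins, was 4.76-fold higher. In the tile with 1417 CPM of the 5 genes, Ifih1 was at 112 CPM, as outside the tiles. Usp18 was at 55.9 CPM there, on 3 counts, against 46.8 CPM. Zbp1 at 168 against 56.0 CPM and Dhx58 at 168 against 100 CPM were higher there. Isg20 was at 1.05-fold.

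Isg15, which was not used to choose the tiles, was higher there in most cell classes. It was at least 2-fold higher with the interval above 1 in 10 of 11 classes with at least 20 cells in the tiles. It was at 7245 CPM in erythroid-gated cells of the tiles and 2498 CPM in those elsewhere, at 4466 and 792 CPM in C1q-positive cells, at 1170 and 222 CPM in granulocyte-gated cells and at 2626 and 458 CPM in unassigned cells. Erythroid-gated cells were 11% of cells in the tiles and 14.7% elsewhere, and C1q-positive cells 3.68% and 2.81%. Markers of T cells were at 1.59-fold (1.41 to 1.79) and of NK cells at 1.82-fold (1.48 to 2.22) in the tiles, where Cd8a, Cd8b1, Gzma and Eomes passed the 2-fold rule. Plasmacytoid markers were at 1.16-fold (1.07 to 1.27), monocyte markers at 1.12-fold with an interval above 1, granulocyte markers at 1.08-fold (1.06 to 1.10) and macrophage markers at 0.98-fold, where Marco passed the rule. The part of these markers in the result was not tested.

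Without these tiles, Isg15 and the erythroid markers had r = 0.71 and rho = 0.71 over 216 tiles, and Isg15 and the other 5 genes had r = 0.32 and rho = 0.24. Without these cells, Isg15 was 6.86-fold higher in erythroid-gated cells, and 40 members were at least 2-fold higher in the marrow than in the liver. With tiles of 100 µm, 20 tiles passed, in which Cxcl10 was at 9.05-fold and Isg15 at 3.71-fold.

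**Figure D5:**
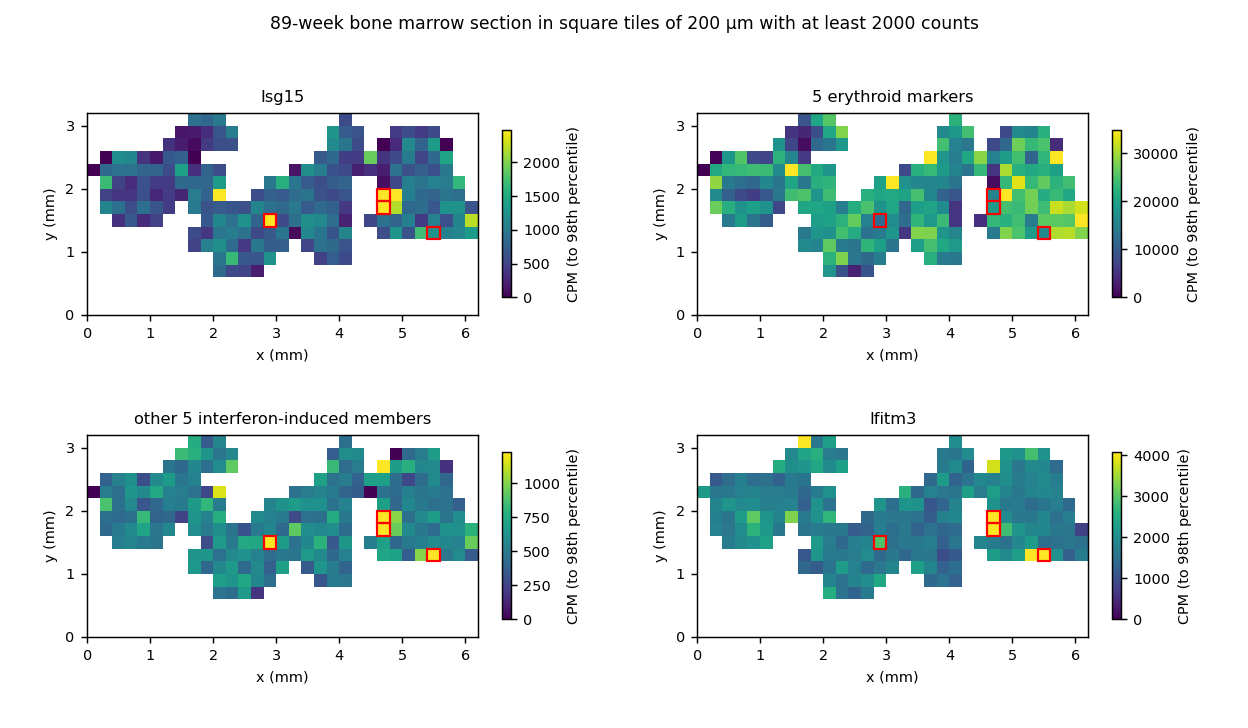
The 89-week marrow section in square tiles of 200 µm with at least 2000 gene counts, coloured by the level of Isg15, of 5 erythroid markers, of the other 5 interferon-induced members and of Ifitm3 in CPM, with the scale ending at the 98th percentile and axes in mm. Red outlines mark the 4 tiles with 1417 to 3434 CPM of the 5 members. In each, Isg15 and Ifitm3 are above the pooled level of the rest of the section and erythroid markers are not. Some tiles without an outline are higher than an outlined tile, among them tiles with 2631 CPM of Isg15 and 4645 CPM of Ifitm3.

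Cells with several counts of interferon-induced genes were looked at last. In the marrow, 1141 cells had at least 3 counts of the 6 interferon-induced genes, and 792 of them were erythroid-gated. An equal share of these genes in every cell would give 271 such cells from the total counts (4.21-fold, 3.97 to 4.46), but the levels already differed between cell classes and tiles as described above, so the excess is no separate result. Without Isg15, 123 cells had at least 3 counts, against 23.8 from an equal share, and 31 of these lay in the 4 tiles, which had been chosen by the same 5 genes. These 123 cells included 30 erythroid-gated, 19 stroma-gated, 13 monocyte-gated and 12 C1q-positive cells. Cells within 40 µm of them had 1519 CPM of the 5 genes, against 587 CPM around all cells. The 123 cells and the tiles that hold 31 of them were chosen by these genes, and outlines can hold RNA of neighboring cells. This value is therefore no separate result either. In the liver, 4 cells had at least 3 counts of the 6 genes, against 0.0769 from an equal share.

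The 50 pathway genes on the panel that are no members, taken from a list of 72 adaptors, kinases, cytosolic sensors, inflammasome and antigen-processing genes, included 31 with at least 20 counts in the liver. Of these 31, 20 were at least 2-fold higher in the marrow, against 13.1% of genes with as many liver counts, and 0 of all 50 were at least 2-fold higher in the liver, against 17.7% of panel genes. With the filter over both sections, which some passed through the marrow alone, 37 of 50 were higher, against 27.3%. Ciita, the regulator of class II antigen presentation, gave 4 counts in the liver and 2975 in the marrow, Tap1, a peptide transporter, 14 and 5139 (38.9-fold, 23.2 to 71.3), and Zbp1 1 and 788. Ciita, Tap1 and Zbp1 passed the filter through the marrow alone. Among genes with at least 20 liver counts, Isg20 was at 12.3-fold and Unc93b1 at 6.80-fold, each on 127 liver counts. The signaling genes Mavs at 0.85-fold, Rela at 0.99-fold and Irak1 at 1.07-fold were close to level. In C1q-positive cells of the liver, 11 of 31 tested genes were at least 2-fold higher, against 9.53% of genes, among them Il18 at 19.1-fold, Casp1 at 12.6-fold and Unc93b1, which carries TLRs to endosomes, at 9.70-fold (6.72 to 13.96). In the marrow, 5 of 50 were higher, against 6.36%, and 1 lower, against 6.46%, with Il18 at 5.61-fold, Cxcl10 at 4.19-fold, Cd14 at 4.12-fold, Cxcl9 at 3.34-fold and Nod1 at 2.65-fold. In erythroid-gated cells of the marrow, 26 of 50 were at least 2-fold lower, against 38.7% of genes, and 4 of 50 were higher, against 5.69%, namely the exonuclease gene Isg20 at 5.34-fold (5.17 to 5.52), Usp18 at 2.26-fold, Herc6, a ligase of the Isg15 pathway, at 2.24-fold and Ifih1 at 2.21-fold.

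Only 3 members, Tlr4, Gbp2 and Ifng, were on the smaller panel of 477 genes, on which 4 further sections were imaged in another run, so their values stand side by side without a comparison between panels. All 4 sections came from wild-type mice, by the labels or, for the treated spleen, by the study's description. The C1q gate took 14983 of 117329 cells of an E14.5 fetal liver and 5791 of 52594 cells of marrow of postnatal day 8. It took 38973 of 108338 cells of an untreated adult spleen and 33235 of 94582 cells of the spleen of a mouse given phenylhydrazine at 40 mg/kg. These shares were larger than in the 2 sections above, and the gate was not checked with macrophage genes here. Tlr4 was at 7.16-fold in C1q-positive over other cells of the E14.5 liver (6.91 to 7.43), at 1.79-fold in the postnatal marrow, at 1.33-fold in the untreated spleen and at 1.89-fold in the treated spleen. Gbp2 was at 1.99, 1.06, 0.68 and 0.90-fold in the same sections. Ifng was at 0.84, 0.52, 0.64 and 0.66-fold. Ifitm6, a gene of the Ifitm family outside the 53 members, was at 0.81, 0.58, 0.96 and 0.61-fold.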

How the data were processed

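Sections were imaged with Xenium, and the submitters' processing notes name Xenium Onboard Analysis 3.1.0.4 for both sections of the larger panel and 1.7.1.0 for the smaller panel. The deposited values are raw counts of decoded transcripts per gene and cell, which the authors' pipeline assigned to segmented cells. All deposited cells were used, with no doublet caller, because neighboring cells can share an outline. Cells were summed by section, C1q gate or class gate, and levels were CPM over the gene counts of the cells compared. Ratios have exact conditional binomial intervals, levels exact Poisson intervals, both at 95%. A ratio needed 20 counts over both sides and a 2-fold difference to count as higher or lower, and 0 counts were set to 3 counts for a bound. Expected numbers of cells rich in interferon-induced counts came from a Poisson model at each cell's total count. The ratio and expectation code was tested on simulated data.

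Groups came from the labels of the samples, with 1 section for each. Members and lists were chosen with earlier results of these data known. Named were up to 5 members of each role list with the most counts, the 8 largest and 8 smallest folds between sections and the 8 largest C1q folds in each section; the tiles, the classes and the genes named for them were added after their values were seen. Alternatives changed the denominator, the count minimum, the gates, the cells kept and the side of the section. Python 3.11.15 was used with numpy 2.4.6, scipy 1.17.1, pandas 2.3.3 and matplotlib 3.10.9. Promoters came from RefSeq (GRCm38.p6), where 48 of 53 members had a match. One member entered the counts and sums but is not reported here by name.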

Additional observations from a re-analysis of the deposited data

How the results depend on the processing

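Among the alternative values of the counts of members and list summaries, 44 stayed within the limits set for an unchanged value and 16 moved. Counts could only stay or move under the rule used, so the lack of reversals among them carries no information. Among the alternative values of single members and lists, 640 stayed, 117 moved and 12 reversed. The causes were not tested. Taken per cell instead of as CPM, 21 members (39 as reported) were at least 2-fold higher in the marrow, against 9.65% of all genes, and 10 (1 as reported) in the liver, against 59.4%, 4 role lists instead of 8 were at least 2-fold higher in the marrow, and of the values reported as at least 2-fold or of summed lists, those below 1 were Ifngr1 (0.908), Stat2 (0.912), Tlr4 (0.751), Nlrp4e (0.698), Nlrp4f (0.747, a bound) and the summed NLRs (0.712), receptors (0.587) and STATs (0.673). Of members with smaller folds above 1 as reported, Ifnar2 (0.476), Ifngr2 (0.354), Stat3 (0.609), Stat5b (0.408), Stat6 (0.656), Gbp2b (0.570), Tlr5 (0.385) and Nlrp9b (0.686) were below 1 per cell. With a minimum of 20 counts in the liver section, 15 of 25 members were at least 2-fold higher in the marrow (13.1% of genes). Against the lower-x side of the liver section alone, the bounds of Ifnb1 (0.681) and Nlrp4f (0.966), with 0 liver counts, and the fold of Nlrp4e (0.903), with 1, fell below 1.

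For C1q-positive cells of the liver, 12 of 25 members tested were at least 2-fold higher as reported, 5 of 20 with the other cells limited to those with fewer than 3 erythroid marker counts (8.32% of genes) and 20 of 33 with a minimum of 10 counts (10.8%). At a gate of at least 10 counts, 8 role lists instead of 4 were at least 2-fold higher, and Nlrp6 had 0 counts in the gate, which allows up to 1.77-fold. For C1q-positive cells of the marrow, 6 members were higher as reported, 2 at a gate of at least 2 counts (4.23% of genes), 10 at 5 (9.57%), 16 at 10 (13.5%) and 28 taken per cell (29.2%). Ifnlr1 was at 1.35-fold at a gate of 10 counts, and Nlrp12 was at 1.00-fold among cells with at least 100 counts.

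Observed over expected numbers of cells with at least 3 interferon-induced counts were 52.0 in the liver, 3.41 at 2 counts and 23167 at 5 counts, where 1 cell passed. In the marrow they were 4.21, 1.55 at 2 counts, 43.8 at 5 counts and 5.17 without Isg15. The alternatives on the liver minimum, on Isg15 in erythroid-gated cells, on neighbors within 20 µm, on cells without the 4 tiles and on tiles of 100 µm were chosen after seeing the data.

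No paired analysis was possible because each condition had 1 section, and for the same reason no replicate could be left out. In the liver, 28 of the 53 members had under 20 counts, which limits the precision of their values.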
